A study of Homo sapiens with 12 samples.

Results

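The E2F and DP transcription factors were followed in D283 cells labelled as having ABL1 and ABL2 inactivated. The family was taken by name as 10 of the 49651 genes with counts in the table: E2F1 to E2F8, TFDP1 and TFDP2. D283 is an established medulloblastoma line with amplified MYC. Its mRNA was sequenced in 3 libraries with genetic inactivation of the tyrosine kinase genes ABL1 and ABL2 and in 3 libraries with a scrambled control. All of them were grown in the same medium, and coordinates below are those of GRCh38.p14. The sources used here state neither how the kinases were inactivated nor whether replicates are separate cultures or clones, so each p-value reflects the spread among these libraries, which may be technical.

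E2F proteins bind DNA near the start of genes for S phase and mitosis, and most of them do so as a pair with a DP protein, encoded by TFDP1 or TFDP2. E2F1, E2F2 and E2F3 are known as activators that the retinoblastoma protein RB1 holds back until cyclin-dependent kinases phosphorylate it. E2F4 and E2F5 act mainly as repressors with the pocket proteins RBL1 and RBL2, E2F6 represses with polycomb proteins, and E2F7 and E2F8 repress without a DP partner. In medulloblastoma, as in many tumours, this pathway acts downstream of MYC and the D cyclins.

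Several E2F genes are known targets of E2F itself, so the stretch before the start is shown for 3 members that changed and held the letters of an E2F site, and for E2F7, which changed and held none. RefSeq promoter windows of GRCh38.p14 matched 8 of the 10 members, all but E2F5 and E2F8, and the 250 bases before each start were searched on both strands for TTTCCCGC, TTTGGCGC, TTTCGCGC and TTTGCCGC. Among 35116 such windows, 2.79% held at least 1 of these, and 0.122% held 2 or more. E2F1 (chr20:33686386-33686535, reverse strand) held 2, at -33 to -26 and at -20 to -13 from the start. E2F3 (chr6:20401729-20401878, forward strand) held 1, at -53 to -46 before its upstream start. TFDP1 (chr13:113584603-113584687, forward strand, ending before the first annotated exon) held 1, at -120 to -113 from the start in the RefSeq window. That start lies inside the first annotated exon, downstream of the last base shown, so the match is nearer to the end of the printed stretch than these positions say. E2F7 (chr12:77065570-77065719, reverse strand) held none of the 4 forms and is shown beside them. Capitals mark the matches, read 5′ to 3′ on the strand of the gene.
E2F1: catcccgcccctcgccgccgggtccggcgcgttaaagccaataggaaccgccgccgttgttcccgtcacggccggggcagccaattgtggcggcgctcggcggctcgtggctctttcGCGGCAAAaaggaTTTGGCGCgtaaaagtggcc
E2F3: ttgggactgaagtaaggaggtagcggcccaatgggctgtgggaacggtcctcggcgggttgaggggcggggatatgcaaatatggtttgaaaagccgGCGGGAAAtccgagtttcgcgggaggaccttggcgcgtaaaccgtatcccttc
TFDP1: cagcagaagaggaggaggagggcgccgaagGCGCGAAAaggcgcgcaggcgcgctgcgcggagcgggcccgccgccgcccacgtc
E2F7: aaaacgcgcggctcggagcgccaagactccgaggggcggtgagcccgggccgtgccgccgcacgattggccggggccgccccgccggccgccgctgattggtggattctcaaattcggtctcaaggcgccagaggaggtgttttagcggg
E2F2 held 1 match at -42 to -35, and E2F4, E2F6 and TFDP2 held none, nor did the downstream start of E2F3. The NF-Y box CCAAT, present in 32.0% of all windows, occurred 3 times before E2F1, 4 times before E2F3, 4 times before E2F7 and 2 times before the upstream start of TFDP2. No E2F match overlapped a CCAAT box. These are matches of letters and say nothing of binding.

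Libraries held 34292341 to 49034159 counts in the inactivated group and 33505903 to 35893081 in the control group. ABL1 fell to 61.9 ± 0.625 CPM in inactivated cells, against 153 ± 4.82 CPM in control cells, and ABL2 to 104 ± 7.60 CPM in inactivated cells, against 138 ± 5.58 CPM in control cells. Throughout, ± is the SD over n = 3 libraries of a group, and CPM is the depth-scaled read count after trimmed mean of M values (TMM) scaling. Of 7 markers of Group 3 medulloblastoma 6 were detected, with a summed level of 2644 to 2744 CPM in inactivated libraries and 2359 to 2386 CPM in control libraries. The sum covers unlike changes. OTX2 fell, with 666 ± 11.4 CPM in inactivated and 830 ± 16.1 CPM in control cells. MYC, NPR3, IMPG2, GABRA5 and CRX rose, IMPG2 to 316 ± 18.4 CPM in inactivated cells, against 66.7 ± 3.63 CPM in control cells. The 4 leukocyte markers were each under 1 CPM and summed to 0 to 0.121 CPM in inactivated and 0.253 to 0.361 CPM in control libraries. Of 6 fibroblast markers 3 were under 1 CPM, and COL1A1 and PDGFRB made up most of a sum of 33.4 to 36.9 CPM in inactivated and 42.7 to 46.2 CPM in control libraries. COL1A1 rose, with 15.1 ± 1.04 CPM in inactivated and 8.11 ± 0.583 CPM in control cells. PDGFRB fell, with 18.9 ± 0.739 CPM in inactivated and 32.8 ± 1.47 CPM in control cells, and the scarcer DCN fell too. The 3 endothelial markers summed to 1.87 to 1.91 CPM and 1.87 to 2.42 CPM in these groups. Genes with another copy on an alternate sequence had few counts: the median over all libraries was 0 for 1584 such protein-coding genes, against 1519 for the 17951 without. Among the markers this touches NRL, COL3A1 and PTPRC, which are counted in these sums at 0 or near it and whose low levels cannot be read as absence.

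Of the 10 members 9 had enough counts to be tested, and 8 of these changed: E2F8, E2F3, TFDP2, E2F5 and E2F4 rose, and E2F7, E2F1 and TFDP1 fell. E2F6 did not pass the threshold and E2F2 was not tested. The levels of these 8 did not overlap between the groups, 5 higher and 3 lower, which held for 63.2% of all genes tested, 31.4% higher and 31.9% lower. Of all 14704 genes tested 59.3% changed by edgeR's quasi-likelihood test at an adjusted p of 0.05, 29.6% higher and 29.7% lower, so the count of changed members is to be read against a background in which most genes changed. The size of change was mostly small: E2F8 alone changed by 1.5-fold or more, and the median size of the log2 fold change was 0.31 over the 9 members, against 0.27 over all genes tested. With a 1.2-fold change as the null, 3 members passed, E2F8, E2F3 and E2F7 (adjusted p of 9.96e-13, 6.33e-05 and 0.0483 by edgeR's glmTreat), and 32.7% of all genes did.

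**Figure D1:**
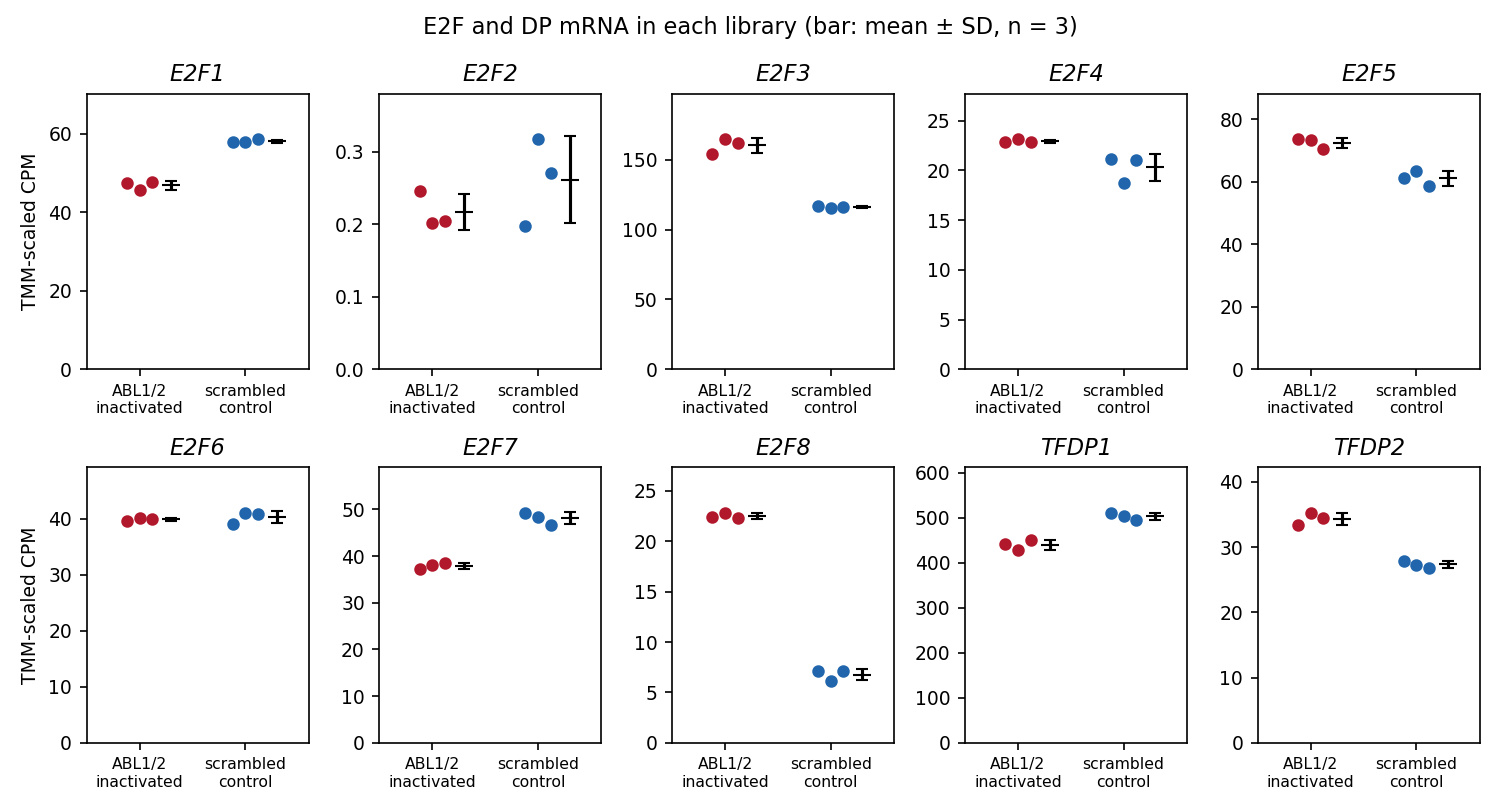
Level of each member in every library, in TMM-scaled CPM on linear axes that start at 0, with ABL1 and ABL2 inactivated libraries (red) left of scrambled control libraries (blue); black bars give the mean and SD of 3 libraries. The groups stand apart for E2F8, where the inactivated libraries lie at 22.3 to 22.8 CPM and the control libraries at 6.11 to 7.12 CPM, and they overlap for E2F2 and E2F6.

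Among the activators, E2F1 was lower and E2F3 higher after inactivation. E2F1, which drives entry into S phase and can also induce apoptosis, lies on chromosome 20 at 33675477 to 33686385 on the reverse strand. It had 47.4, 45.6 and 47.6 CPM in the inactivated libraries, against 57.8, 57.9 and 58.5 CPM in the control libraries. All 3 inactivated libraries were below every control library. On the log2 scale the change was -0.31 (SE 0.045, 95% CI -0.41 to -0.22, edgeR adjusted p 7.53e-06). The fall was 19.4% of the control level, and with a 1.2-fold change as the null the adjusted p was 0.136.

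E2F3, the activator whose locus is amplified in some retinoblastomas and bladder tumours, lies on chromosome 6 at 20401879 to 20493714 on the forward strand. It had 154, 165 and 162 CPM in the inactivated libraries, against 117, 115 and 116 CPM in the control libraries. Every inactivated library exceeded every control library, by a mean fold of 1.38. The fitted log2 change was 0.46 (SE 0.042, 95% CI 0.38 to 0.55, edgeR adjusted p 1.45e-08). Chromosome 6 as a whole was higher in inactivated cells, where 688 tested genes had a median log2 change of 0.51, and relative to that median E2F3 stood at -0.048. The 20 tested genes nearest to it had a median of 0.52, and 13 of them rose. E2F3 shares 597 bases of exon with the opposite-strand entry LOC124901482, which had 131 counts in the inactivated group and 95 in the control group.

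E2F2, the remaining activator, had 9, 10 and 7 counts in the inactivated libraries and 7, 11 and 9 counts in the control libraries. That is 26 against 27 counts in all, a ratio of 0.828 after scaling with a 95% counting interval of 0.464 to 1.47. This level cannot be read as expression, since the table holds another copy of E2F2 on an alternate sequence, with 1 count. HNRNPR, an abundant RNA-binding protein gene with a copy on the same alternate sequence, had 554 counts over all 6 libraries. Low E2F2 mRNA and reads lost between the copies cannot be told apart.

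Both E2Fs that act mainly with pocket proteins rose slightly. E2F4, the most common E2F of resting cells, on chromosome 16 (67192155 to 67198918), was found at 22.9, 23.1 and 22.8 CPM in the inactivated libraries, against 21.1, 18.7 and 21.0 CPM in the control libraries. Control replicate 2 was the lowest of the 6 libraries, and the groups did not overlap. The model put the log2 change of E2F4 at 0.18 (SE 0.062, 95% CI 0.048 to 0.31, edgeR adjusted p 0.0192). The call was lost without control replicate 2 (log2 fold change 0.12, edgeR adjusted p 0.134) and in lane 1 alone (0.19, adjusted p 0.0534). The median log2 change of the 20 nearest tested genes was 0.22, and 10 of them rose and 1 fell.

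E2F5, a partner of RBL2 that also carries SMAD signals to the MYC promoter, lies on chromosome 8 at 85177154 to 85214518. It had 73.5, 73.2 and 70.5 CPM in the inactivated libraries, against 61.3, 63.4 and 58.5 CPM in the control libraries. No control library reached the lowest inactivated one. The log2 change of E2F5 came to 0.25 (SE 0.046, 95% CI 0.15 to 0.34, edgeR adjusted p 0.000126). The neighbouring gene RBIS, a ribosome biogenesis factor on the opposite strand, shares 471 exon bases with E2F5, and the sources used here do not state whether the counting used strand. RBIS rose as well, with 133 ± 5.64 CPM in inactivated cells and 111 ± 3.79 CPM in control cells, so reads of the shared stretch cannot be told apart. The median log2 change was -0.048 over tested genes of chromosome 8 and -0.089 over the 20 nearest to E2F5.

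E2F6 did not pass the threshold, and 6 of 9 tested genes of its polycomb complex PRC1.6 fell, where 29.7% of all genes tested did. With a 1.2-fold change as the null 1 of the 9 was lower and 1 higher. Of all 14704 genes tested 32.7% passed that null, 2275 lower and 2529 higher. E2F6, on chromosome 2 (11444375 to 11466161), was found at 39.7, 40.2 and 39.9 CPM in the inactivated libraries, against 39.1, 41.0 and 40.9 CPM in the control libraries. The inactivated libraries lay within the range of the control libraries. The fit gave E2F6 a log2 change of -0.014 (SE 0.048, 95% CI -0.12 to 0.086, edgeR adjusted p 0.815). Of the other PRC1.6 genes 1 rose and 2 stayed below the threshold, and the median log2 change over the 9 was -0.16, against 0.0031 over all genes tested. MAX, the E-box binding partner of MYC and MGA, had 95.3 ± 3.57 CPM in inactivated cells and 127 ± 5.21 CPM in control cells. The chromatin reader CBX3 averaged 301 ± 2.11 CPM in inactivated cells and 344 ± 9.86 CPM in control cells. WDR5, a scaffold of chromatin complexes, averaged 122 ± 1.51 CPM in inactivated cells and 139 ± 1.36 CPM in control cells. RNF2, the ubiquitin ligase of the complex, rose to 185 ± 4.88 CPM in inactivated cells, against 117 ± 1.65 CPM in control cells, and lies on chromosome 1. RING1, the untested gene of the list, and RYBP have copies on alternate sequences: RING1 was listed at 0, and RYBP had 331 counts over all libraries, against 2492 on its copy, so its value cannot be read as expression although it is among the 6. The RYBP call was lost without inactivated replicate 2, control replicate 1 or control replicate 3 (edgeR adjusted p 0.0884, 0.146 and 0.0789), in lane 2 alone (adjusted p 0.171) and with DESeq2 (adjusted p 0.0610). PCGF6 lost its call in lane 1 alone (edgeR adjusted p 0.211). MGA, below the threshold, passed as lower without inactivated replicate 2 or control replicate 3 (edgeR adjusted p 0.00303 and 0.0106). It also passed in lane 1 alone (0.0227) and with no filter on low counts (0.0149). Of 6 germline genes known as E2F6 targets in mouse, 1 was tested: STAG3, a meiotic cohesin subunit, had 1.09 ± 0.198 CPM in inactivated cells and 0.817 ± 0.191 CPM in control cells (log2 fold change 0.43, edgeR adjusted p 0.14, not past the threshold). The other 5 had too few counts to be tested, and TUBA3E among them has a copy on an alternate sequence.

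The atypical repressors moved in opposite directions. E2F8, on chromosome 11 at 19224063 to 19241655, showed the widest change of the family, with 22.4, 22.8 and 22.3 CPM in the inactivated libraries, against 7.12, 6.11 and 7.10 CPM in the control libraries. The lowest inactivated library was above 3 times the highest control library. The raw counts were 820, 1132 and 762 in the inactivated libraries, against 253, 212 and 236 in the control libraries. As a log2 change this was 1.73 (SE 0.074, 95% CI 1.58 to 1.89, edgeR adjusted p 2.76e-13). That is a fold of 3.32, and 5.38% of all genes tested, 791 genes, had a log2 fold change of at least that size. It ranged from 1.66 to 1.78 when each library was left out in turn. The tested genes of chromosome 11 had a median log2 change of -0.0093, and the 20 nearest to E2F8 had 0.44, of which 8 rose and 4 fell.

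E2F7, its close relative on chromosome 12 (77021251 to 77065569), was measured at 37.3, 38.1 and 38.4 CPM in the inactivated libraries, against 49.2, 48.3 and 46.7 CPM in the control libraries. No inactivated library reached the lowest control library. For E2F7 the log2 change was -0.34 (SE 0.047, 95% CI -0.44 to -0.24, edgeR adjusted p 4.61e-06). The median was -0.0073 over tested genes of chromosome 12 and -0.013 over the 20 nearest to E2F7. Per kilobase of exon, E2F8 stood at 0.877, 0.874 and 0.845 of the E2F7 level in the inactivated libraries, against 0.211, 0.184 and 0.222 in the control libraries. The summed level of both per kilobase was 12.3 ± 0.125 CPM in inactivated cells and 10.1 ± 0.247 CPM in control cells.

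The DP genes also moved apart, with the abundant TFDP1 lower and the scarce TFDP2 higher. TFDP1, on chromosome 13 (113584688 to 113641473), was found at 441, 427 and 450.4 CPM in the inactivated libraries, against 510.2, 503 and 494 CPM in the control libraries. All inactivated libraries lay below all control libraries. TFDP1 thus changed by -0.19 (SE 0.041, 95% CI -0.28 to -0.11, edgeR adjusted p 0.000506) on the log2 scale. TFDP2, on chromosome 3 (141944428 to 142149544), was found at 33.4, 35.2 and 34.4 CPM in the inactivated libraries, against 27.9, 27.3 and 26.8 CPM in the control libraries. Every inactivated library was above every control library. TFDP2 changed by 0.33 (SE 0.052, 95% CI 0.22 to 0.44, edgeR adjusted p 2.31e-05) on the log2 scale, and relative to the median of chromosome 3, where tested genes stood at -0.097, it was 0.43. TFDP3, a related gene on the X chromosome, had 1 count in all libraries together. Per kilobase of exon, TFDP1 exceeded TFDP2 by 38.3, 35.1 and 38.0 times in the inactivated libraries and by 53.0, 53.4 and 53.5 times in the control libraries.

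**Figure D2:**
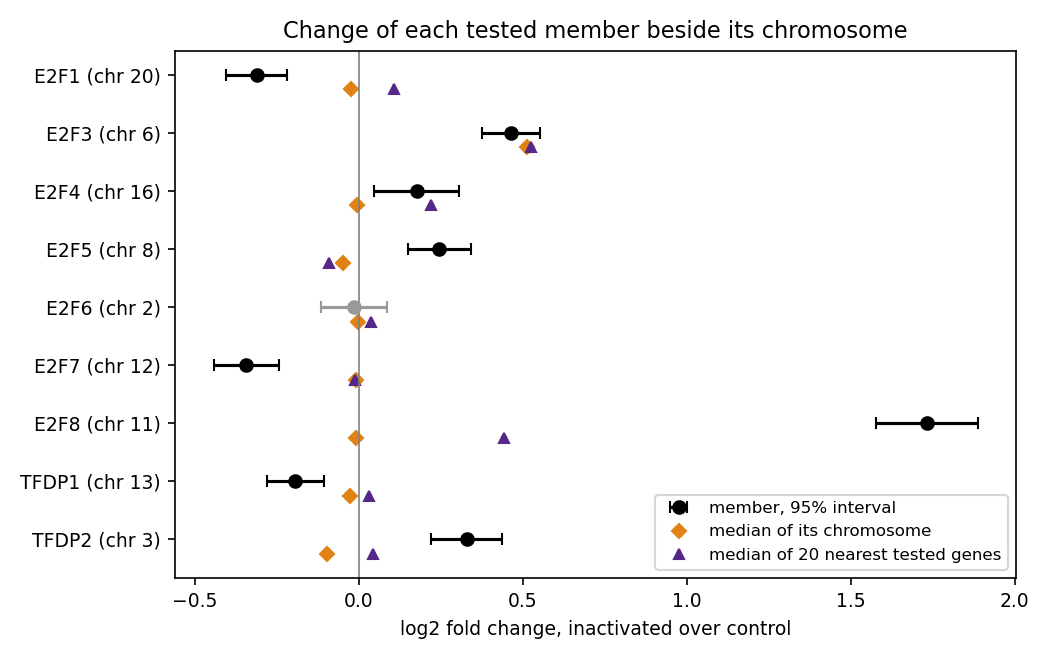
Log2 fold change of the 9 tested members, inactivated over control, with 95% intervals from edgeR's fit (black where past the threshold, grey where not), beside the median of the other tested genes on the chromosome (orange) and of the 20 nearest tested genes (violet). E2F3 at 0.46 lies beside its chromosome median of 0.51, while E2F8 at 1.73 lies far from its chromosome median of -0.0093.

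Levels of different members were compared per kilobase of the exon length in the table. TFDP1 stood highest, at 119.8 ± 3.22 CPM per kilobase in inactivated cells and 137 ± 2.17 in control cells. E2F5 followed with 34.5 ± 0.776 and 29.1 ± 1.18, and E2F1 with 17.4 ± 0.420 and 21.6 ± 0.142, in inactivated and in control cells. E2F6, E2F4, E2F3, E2F7 and E2F8 came next in inactivated cells, the last at 5.69 ± 0.0714, and in control cells E2F8 stood at 1.71 ± 0.147, below TFDP2. TFDP2 had 3.23 ± 0.0859 CPM per kilobase in inactivated cells and 2.57 ± 0.0526 in control cells. No neighbours in this order overlapped between libraries of 1 group, but the order rests on the length used.

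E2F3 shows how far that goes, because its exon length of 15705 bases exceeds the 4749 bases of its longest protein-coding transcript in GENCODE. On the first length E2F3 had 0.557, 0.619 and 0.584 of the E2F1 level in the inactivated libraries, against 0.347, 0.341 and 0.340 in the control libraries. On the second it had 1.71, 1.90 and 1.80 times the E2F1 level in the inactivated libraries, against 1.07, 1.05 and 1.05 times in the control libraries. Which of these activators is more abundant therefore depends on the length. The fold rise of the ratio cannot depend on it, because each length is the same in all libraries. On this second length, chosen after seeing the data, E2F3 ranked behind TFDP1 and E2F5 and ahead of E2F1 in both groups.

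Within the summed level of E2F1 to E2F8 per kilobase of exon, E2F8 took 5.87% ± 0.0477 in inactivated cells and 1.91% ± 0.171 in control cells. E2F1 took 17.96% ± 0.512 and 24.1% ± 0.322, and E2F7 6.78% ± 0.124 and 9.31% ± 0.187, in these groups. The sum itself was 96.9 ± 0.475 CPM per kilobase in inactivated cells and 89.6 ± 0.609 in control cells. E2F7 and E2F8 together had 0.444 ± 0.00665 of the level of E2F1, E2F2 and E2F3 together in inactivated cells, against 0.346 ± 0.00930 in control cells, and on the transcript length 0.248 ± 0.00297 and 0.216 ± 0.00517. Without length, E2F7 and E2F8 summed to 60.4 ± 0.659 CPM in inactivated and 54.9 ± 1.32 CPM in control cells. The 3 activators then summed to 207 ± 5.10 CPM in inactivated and 175 ± 0.843 CPM in control cells. Whether the ratio is higher in inactivated cells therefore depends on dividing by length. E2F2 is in these sums with its unreadable counts, at 0.0339% of the total in inactivated cells and 0.0441% in control cells, so they lack whatever E2F2 the cells express. These shares are descriptions without a test.

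**Figure D3:**
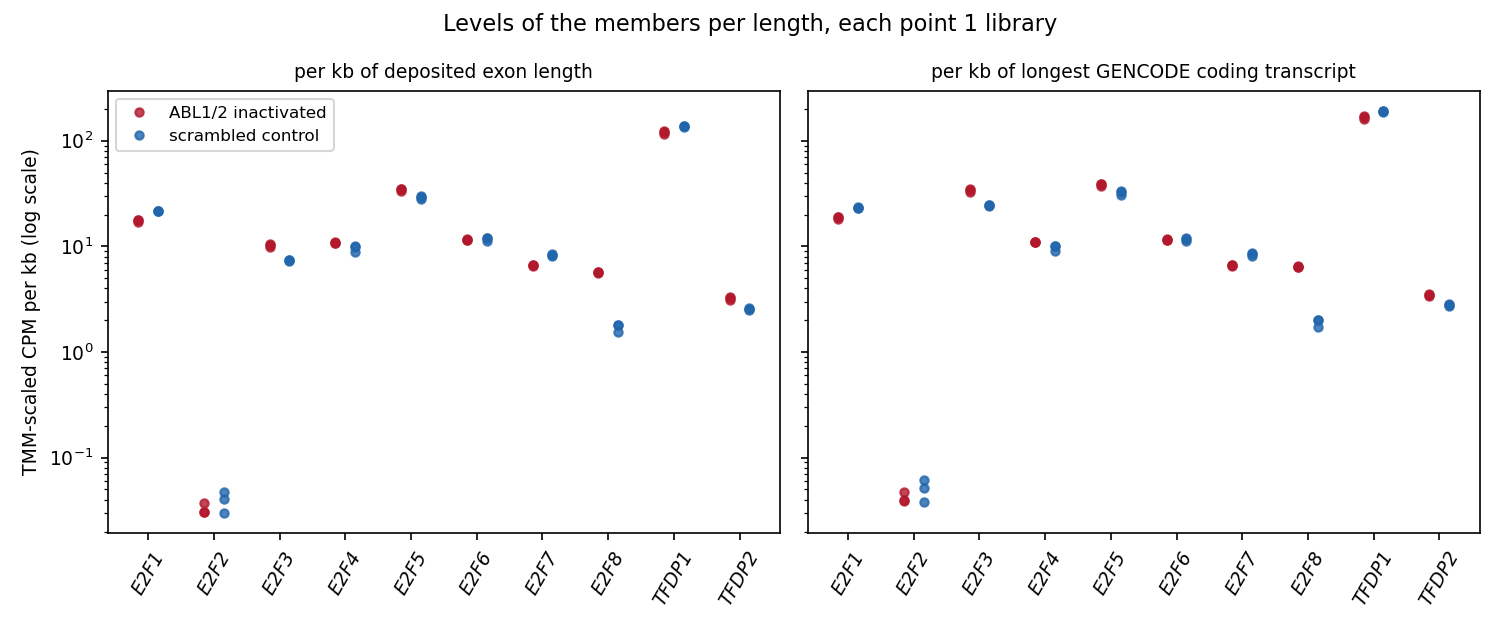
TMM-scaled CPM per kilobase on a log axis for each member, 1 point per library, inactivated (red) left of control (blue); the left panel divides by the exon length in the table and the right panel by the longest protein-coding transcript. TFDP1 is highest in both panels, and E2F3 moves from about 10.2 to about 33.8 CPM per kilobase in inactivated cells with the change of length; the low E2F2 points reflect counts that cannot be read as expression.

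Replicate spread was set beside counting error for E2F8, E2F3 and TFDP1. E2F8 varied by 1.26% (coefficient of variation) in inactivated cells and 8.57% in control cells, where counting alone gives 3.32% and 6.54%. E2F3 varied by 3.54% in inactivated cells, with replicate 1 the lowest, and by 0.781% in control cells, where counting alone gives 1.25% and 1.58%. TFDP1, the deepest member with 15409 to 21180 counts in inactivated libraries and 16423 to 18134 in control libraries, varied by 2.69% and 1.58%, against 0.754% and 0.759% from counting.

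The regulators upstream of the E2Fs changed in mixed directions. Their counts are to be read against the 59.3% of all genes tested that changed, 29.6% higher and 29.7% lower. All 3 pocket protein genes changed: RB1 fell, with 168 ± 6.37 CPM in inactivated cells and 209.7 ± 4.78 CPM in control cells, while RBL2 rose, with 31.2 ± 0.0289 CPM in inactivated cells and 22.96 ± 0.876 CPM in control cells. RBL1, itself an E2F target, rose to 56.6 ± 2.58 CPM in inactivated cells, against 49.5 ± 1.94 CPM in control cells. With a 1.2-fold change as the null, passed by 32.7% of all genes tested, RBL2 alone kept its call. RB1 then had an adjusted p of 0.0974 by glmTreat, and RBL1 did not pass. Among 8 tested G1 cyclin and kinase genes, 4 were lower, 2 higher and 2 below the threshold, which is 75% changed. The median log2 change was -0.034, or -0.15 without the genes on chromosomes 1, 6 and 17. The D cyclin gene CCND2 fell, with 539 ± 19.4 CPM in inactivated cells and 865 ± 17.7 CPM in control cells, and CCND3, on chromosome 6, rose, with 68.3 ± 3.50 CPM in inactivated cells and 43.2 ± 3.22 CPM in control cells. The kinase gene CDK4 fell, with 230.0 ± 10.9 CPM in inactivated cells and 299 ± 4.55 CPM in control cells, as did the phosphatase gene CDC25A, with 114 ± 3.59 CPM in inactivated cells and 156 ± 2.91 CPM in control cells. CDK6 did not pass, with 709 ± 51.3 CPM in inactivated and 658 ± 40.6 CPM in control cells (edgeR adjusted p 0.0977). It passed as higher without inactivated replicate 1 or control replicate 1 (edgeR adjusted p 0.0102 and 0.0337).

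Genes for inhibitors of these kinases were mostly lower: 5 of 6 tested fell and 1 rose, where 29.7% of all genes tested fell. The median log2 change was -0.53, and with a 1.2-fold change as the null 3 were lower and 1 higher. That null was passed by 32.7% of all 14704 genes tested, 2275 lower and 2529 higher. CDKN1A, which encodes p21, fell to 10.0 ± 1.07 CPM in inactivated cells, against 17.2 ± 0.479 CPM in control cells. CDKN2A, whose transcripts encode p16 and ARF, had 0.731 ± 0.0323 CPM in inactivated cells and 2.51 ± 0.131 CPM in control cells, and CDKN2B, which encodes p15, had 0.228 ± 0.0299 CPM in inactivated cells and 0.590 ± 0.0622 CPM in control cells. CDKN2D, which encodes p19, rose, with 2.86 ± 0.320 CPM in inactivated cells and 1.51 ± 0.232 CPM in control cells. The last 3 are low in both groups, and CDKN1B, at 201 ± 2.71 CPM in inactivated cells and 220.5 ± 5.10 CPM in control cells, was the most abundant inhibitor by CPM and fell by 0.13 on the log2 scale.

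The MuvB core, which joins E2F4 and pocket proteins in the DREAM complex, was mostly below the threshold. Of 7 genes, counted with MYBL2 and FOXM1, 1 rose, 0 fell and 6 did not pass by edgeR's test. That is 14.3% changed, against 59.3% of all genes tested. The gene that rose was LIN9 on chromosome 1, with 99.1 ± 0.888 CPM in inactivated cells and 58.3 ± 0.936 CPM in control cells. FOXM1, a mitotic transcription factor, had 194 ± 6.40 CPM in inactivated cells and 207 ± 4.32 CPM in control cells and an edgeR adjusted p of 0.0529. It passed without inactivated replicate 3 (adjusted p 0.0466) or control replicate 2 (0.0495), with limma-voom (0.0464), and with no filter on low counts (0.0463). Of 5 genes of E2F turnover 2 rose, 1 fell and 2 did not pass, which is 60% changed. FBXO5, an inhibitor of the anaphase-promoting complex on chromosome 6, had 123 ± 2.38 CPM in inactivated cells and 86.3 ± 2.38 CPM in control cells, and CDC20, an activator of that complex on chromosome 1, had 146 ± 7.80 CPM in inactivated cells and 126 ± 2.93 CPM in control cells; both rose. CCNF, a cyclin F gene whose product marks E2F proteins for destruction, fell, with 83.7 ± 1.13 CPM in inactivated cells and 98.0 ± 3.48 CPM in control cells. Of 7 co-activator genes 1 rose, 2 fell and 4 did not pass, which is 42.9% changed. The acetyltransferase gene KAT2A, on chromosome 17, rose, with 83.1 ± 3.57 CPM in inactivated cells and 62.5 ± 1.51 CPM in control cells, and its relative KAT2B fell, with 9.41 ± 0.344 CPM in inactivated cells and 12.7 ± 0.786 CPM in control cells. CREBBP fell as well, with 211 ± 5.80 CPM in inactivated cells and 232 ± 3.67 CPM in control cells. TRRAP, at a log2 fold change of 0.093, passed without inactivated replicate 1 or control replicate 1 (edgeR adjusted p 0.0386 and 0.0184), which makes 2 that rose, and EP300 passed without inactivated replicate 2 (adjusted p 0.0446).

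Genes that E2F activators induce at the G1 to S transition went both ways. Among 47 tested, 16 fell, 13 rose and 18 stayed below the threshold, so 61.7% changed against 59.3% of all genes tested, and the median log2 change was -0.020. With a 1.2-fold change as the null 5 were lower and 3 higher. Of all 14704 genes tested 32.7% passed that null, 2275 lower and 2529 higher. Among the other 13 settings 14 to 17 of the list fell and 11 to 14 rose. UNG, a uracil glycosylase gene, fell, with 102 ± 4.96 CPM in inactivated cells and 151 ± 3.07 CPM in control cells, as did MCM5, a subunit of the replicative helicase, with 157 ± 7.13 CPM in inactivated cells and 215 ± 3.60 CPM in control cells. BRCA1, on chromosome 17, rose, with 152 ± 3.45 CPM in inactivated cells and 93.9 ± 4.22 CPM in control cells, and the primase gene PRIM1 rose, with 57.2 ± 1.07 CPM in inactivated cells and 39.6 ± 1.73 CPM in control cells. Of the helicase genes MCM2 to MCM7, 2 fell, 1 rose and 3 did not pass. On chromosomes 1, 6 and 17, set aside in a check added after seeing the data, 5 of 8 such genes rose and 2 fell, and elsewhere 8 rose and 14 fell. Of these chromosomes, 6 had a median log2 change of 0.51. Chromosome 1 as a whole had a median of 0.047 over 1502 tested genes, of which 59.5% changed, near the share of all genes. That median does not show whether parts of the chromosome moved apart, and none was taken by arm. Over all lists, tested genes of chromosome 1 ranged in log2 change from -1.04 (TP73) to 0.77 (LIN9). No median was taken for chromosome 17.

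Genes that the DREAM complex holds back until G2 and mitosis were mostly higher. Among 32 tested, 20 rose, 4 fell and 8 stayed below the threshold, so 75% changed against 59.3% of all genes tested, of which 29.6% were higher. ESPL1, among the 20, has a copy on an alternate sequence with 0 counts, against 3832 counts on ESPL1 over all libraries. Whether ESPL1 lost reads for that reason was not tested. Among the 13 other settings with a null of no change, 17 (without control replicate 3) to 25 (upper quartile scaling) rose. The median log2 change of the list was 0.15, against 0.0031 over all genes tested. With a 1.2-fold change as the null 12 of the list were higher and 0 lower, where 32.7% of all 14704 genes passed. Of these, 2529 were higher and 2275 lower. TOP2A, which encodes a topoisomerase, rose, with 1079 ± 49.1 CPM in inactivated cells and 571 ± 21.9 CPM in control cells. The spindle checkpoint kinase gene TTK had 145 ± 2.81 CPM in inactivated cells and 88.8 ± 4.63 CPM in control cells, the kinetochore gene CENPF had 743 ± 48.7 CPM in inactivated cells and 466 ± 3.59 CPM in control cells, and the centrosome kinase gene NEK2 had 76.6 ± 0.962 CPM in inactivated cells and 51.5 ± 1.39 CPM in control cells; all 3 rose. These 4 lie on chromosomes 17, 6 and 1, where 7 of 8 such genes rose and 1 fell. Outside those chromosomes 13 rose and 3 fell, with a median of 0.14. E2F8 and E2F7 are themselves expressed with the cell cycle, and the part of the mix of cell cycle phases in their levels was not tested. In bulk RNA, more cells of a phase and more mRNA per cell cannot be told apart.

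Of 8 apoptosis genes known as E2F1 targets 4 were lower, 1 was higher and 3 stayed below the threshold. That is 62.5% changed, against 59.3% of all genes tested, and the median log2 change was -0.079. The p53 relative TP73 fell, with 11.9 ± 0.566 CPM in inactivated cells and 24.5 ± 1.10 CPM in control cells. MAP3K5, a stress kinase gene on chromosome 6, rose, with 27.3 ± 0.232 CPM in inactivated cells and 13.4 ± 0.916 CPM in control cells. BBC3 passed as higher without inactivated replicate 2 (edgeR adjusted p 0.0291), which makes 2 that rose, and in lane 1 alone 2 of the 8 fell. HRK, a cell death activator gene with 1.63 ± 0.208 CPM in inactivated cells and 2.34 ± 0.434 CPM in control cells, fell, but its call was lost in lane 1 alone and without inactivated replicate 1 or control replicate 1 (edgeR adjusted p 0.142, 0.0647 and 0.145). Over all 11 lists 133 genes were tested, 44 rose, 43 fell and 46 did not pass, which is 65.4% changed, near the 59.3% of all genes tested.

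**Figure D4:**
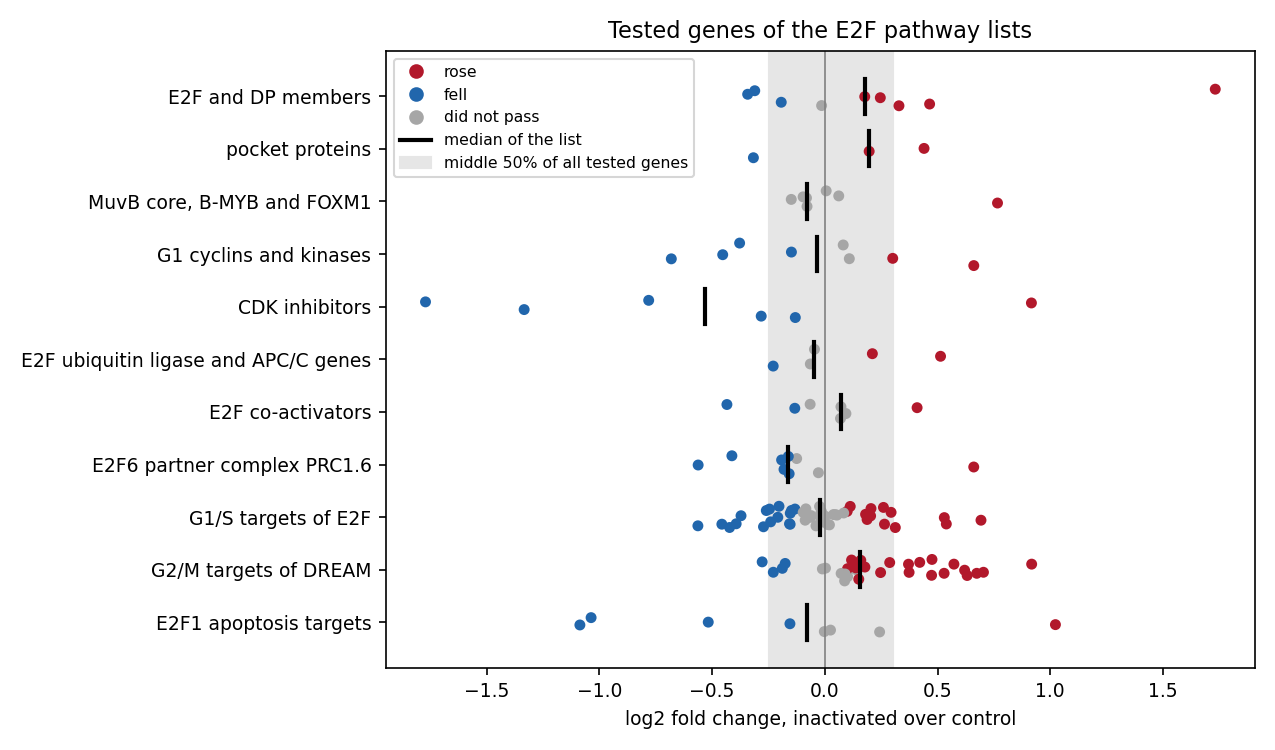
Log2 fold change, inactivated over control, of the 9 tested members and of the tested genes of 10 pathway lists; the list with 1 tested gene is left out. Points are genes, red where they rose, blue where they fell and grey where they did not pass; black bars are medians and the grey band holds the middle 50% of all tested genes, from -0.25 to 0.30. The median of the CDK inhibitors, at -0.53, lies below that band, and all other medians lie inside it.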

How the data were processed

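Counts per gene and lane were deposited as raw whole numbers. The submitters' processing notes name STAR 2.7.2b, featureCounts 1.6.3, the build GRCh38.p14, FastQC 0.11.9, MultiQC 1.11 and the authors' DESeq2 1.36.0, with no word on strand or multi-mapping reads. Per the labels' protocols mRNA was enriched from total RNA and read as 50 bp paired ends. The table holds 49677 genes, of which 26 have no counts and were left out. Both lanes of a library were added up, because they differed by little more than sampling (chi-square per degree of freedom 1.13 to 1.21, against 3.17 to 13.6 within groups). The interval of the E2F2 ratio (exact Clopper-Pearson on summed counts) covers counting error only.

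Genes were filtered with filterByExpr (minimum count 10, total 15), scaled by TMM and compared with edgeR 4.0.16 (quasi-likelihood F test, two-sided, Benjamini-Hochberg over 14704 genes, threshold 0.05); limma 3.58.1 and DESeq2 1.42.0 were alternatives. "Rose" and "fell" are used of genes past that threshold. The fitting steps were tested first on simulated data with 200 planted changes among 14484 genes. Of planted 1.5-fold changes 73.5% were recovered, and of 2-fold changes 83.0%, and 9 of 162 calls were false. Far fewer genes changed there than the 59.3% called in these data, so the simulation does not cover that setting. The deposited exon length, in bases, gave levels per kilobase; GENCODE release 29 gave transcript lengths. The members and the 11 lists of 141 genes were chosen with earlier results of these data known. From each list the text names at most 4 called genes, by lowest p, or 2 by level where none was called. This rule was widened after values were seen for FOXM1, CDKN1B, TRRAP, EP300, RYBP, RING1, BBC3, HRK and HNRNPR. It was also widened for CDK6, MGA, PCGF6, ESPL1 and TUBA3E. Some genes of the lists are counted but not reported here by name. Other settings are in the closing section.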

Additional observations from a re-analysis of the deposited data

How the results depend on the processing

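With a 1.2-fold change as the null (glmTreat), 4804 genes passed, 2529 higher and 2275 lower, with 3 members, 2 higher and 1 lower, and 38 of the pathway genes. Under the other 13 settings run (RLE or upper quartile scaling, DESeq2, limma-voom, no filter, each lane alone, and each library left out), these counts stayed within 1.5 times the main ones, and all members past the threshold kept their direction and call, except E2F4 in lane 1 alone and without control replicate 2. E2F6, never past the threshold, changed sign with upper quartile scaling (log2 fold change 0.00076) and in lane 2 alone (0.021). Relative to the median of its chromosome, E2F3 changed sign (-0.048). The cause was not tested. No scaling moved the median of all genes by over 0.1 on the log2 scale. Without chromosomes 1, 6 and 17, a check added after seeing the data, list medians kept their sign. Those of the G1 cyclins and kinases (-0.15) and CDK inhibitors (-0.73) moved most, further below 0. Other medians moved less, and that of the co-activators went from 0.069 to 0.0020. No paired analysis was possible because the labels give each library a number of its own and no number shared between groups. Counting error limits E2F2 and the lowest inhibitor genes.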
